A study of Homo sapiens with 33 samples.

Results

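Collagen genes were taken as the rows of the gene tables whose symbol is COL, a number, A and a second number, and 44 of the 29744 genes met this rule. They were divided by the structure of the protein into 11 fibrillar collagens, 6 basement membrane collagens (the chains of type IV collagen, COL4A1 to COL4A6) and 27 other collagens. They are described here in 11 high-grade serous ovarian carcinoma (HGSOC) cell lines, and in the comparisons of platinum-resistant with platinum-sensitive lines of the same origin.

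Collagens are secreted proteins in which alpha chains, each the product of its own gene, wind into a triple helix. Fibrillar collagens (types I, II, III, V, XI, XXIV and XXVII) build or nucleate the fibrils of stroma and cartilage and are made in tissue mainly by fibroblasts and chondrocytes. Type IV collagen forms the sheet-like network of basement membranes, which epithelial cells rest on and also help to make. The other collagens form beaded filaments (type VI) or sit on the surface of fibrils (the fibril-associated types such as IX and XII). Further types span the cell membrane (XIII, XVII, XXIII and XXV). Types XV and XVIII carry sulfated sugar chains in basement membranes, and type VII anchors epithelium to stroma. Where a trimer holds chains of different genes, these have to be made together, so the genes are described beside their partner chains. Only mRNA was measured here, so which trimers the cells formed was not tested.

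Expression was measured by mRNA sequencing in 33 libraries, 3 per line, all from cultured cell lines. OVCAR3 and OVCAR4 are established platinum-sensitive HGSOC lines, and OVCAR3 ResA, OVCAR3 ResB, OVCAR4 ResA and OVCAR4 ResB are lines that the study made resistant, independently of each other, by repeated pulses of cisplatin. PEA1 and PEA2 came from the same patient, as did PEO1, PEO4 and PEO6, and in these families PEA1 and PEO1 are the sensitive lines. The labels name the line and the replicate and give no drug treatment, so that the 4 sensitive and 7 resistant roles come from the text of the study. The PEA and PEO families were grown in the same medium, whereas the OVCAR3 and OVCAR4 media differed from it and from each other in supplements, so that family and medium cannot be told apart in comparisons of levels with those families. Each resistant line is a single line, so a difference between lines cannot be assigned to resistance alone. The paper adds that PEO4 and PEO6 are thought to stem from the same clone. Nothing states whether the 3 replicates of a line were separate cultures, and p-values therefore measure the spread between these libraries, which may be technical.

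The libraries held about 18059000 to 43394000 estimated counts, with a median of 30611400. The rows named RNR1 and RNR2, symbols of the mitochondrial ribosomal RNAs, took 1.12% to 14.8% of the counts of a library. All 9 epithelial and ovarian carcinoma markers checked (EPCAM, KRT8, KRT18, KRT19, CDH1, PAX8, WT1, MUC16 and MSLN) reached 1 TPM (a transcript level per length, scaled to the same sum in every library) in 8 lines, and 8, 7 and 7 of them did in OVCAR4, OVCAR4 ResB and PEA1. PEA1 stood apart: its markers summed to 404 to 447 TPM, against 1636 TPM or more in every library of the other lines, with EPCAM at 14 TPM in PEA1 and 575 TPM in PEA2, and CDH1 at 1.26 and 204 TPM. Of the 6 fibroblast markers, none reached 1 TPM in 5 lines (the OVCAR3 family, OVCAR4 ResB and PEA2), and at most 2 did in any other. The largest were THY1 in the PEO lines (107 to 173 TPM), LUM in OVCAR4 ResA (17.7 TPM), FAP in PEO1 (13.9 TPM) and PDGFRB in PEA1 (6.55 TPM). OVCAR4 ResA replicate 1 differed from its 2 sister libraries in genes that PEO1 expresses: COL4A5 was at 0.347 TPM in it and at 0 in the others, COL22A1 at 0.125 TPM and 0, SPARC at 10.6 TPM against 0.198 and 0.14 TPM, and THY1 at 9.96 TPM against 0.80 and 0.669 TPM. Whether this library holds RNA of PEO1 was not tested. The basement membrane sum of OVCAR4 ResA is given with and without it below. Counts of collagen genes called in comparisons with OVCAR4 ResA, and the calls of some genes, are also given from fits without replicate 1 of both lines. The totals over all pairs are given only with it, and the levels of single genes with the library values or the mean of all 3.

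The type IV genes lie in head-to-head pairs that are transcribed away from each other from a shared stretch of DNA. In RefSeq (GRCh38.p14), COL4A1 spans chr13:110148963-110307157 on the minus strand and COL4A2 spans chr13:110307284-110513209 on the plus strand, with 126 bases between their starts. The starts of COL4A4 and COL4A3 on chromosome 2 lie 135 bases apart and those of COL4A6 and COL4A5 on chromosome X 379 bases apart. Promoter windows (250 bases before to 50 after the start, each read 5′ to 3′ on the strand of its gene) were available for 32 of the 44 collagen genes. The windows of both chains of the first and the last of these pairs are shown because these genes differ most in how closely they move together. Capitals mark the CCAAT box, searched on both strands, so that it also appears as ATTGG. They also mark the GC box, searched as GGGCGG and, for the opposite strand, as CCGCCC. The third motif searched, TATAAA, was in none of the 4 windows, and no matches overlapped.
COL4A1 (chr13:110307108-110307407, minus strand): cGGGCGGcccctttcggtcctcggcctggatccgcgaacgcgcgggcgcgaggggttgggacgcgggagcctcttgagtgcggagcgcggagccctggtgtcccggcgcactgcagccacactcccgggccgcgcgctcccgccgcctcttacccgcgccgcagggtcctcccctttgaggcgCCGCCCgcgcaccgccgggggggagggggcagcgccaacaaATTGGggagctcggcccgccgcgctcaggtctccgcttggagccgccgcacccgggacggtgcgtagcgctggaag
COL4A2 (chr13:110307034-110307333, plus strand): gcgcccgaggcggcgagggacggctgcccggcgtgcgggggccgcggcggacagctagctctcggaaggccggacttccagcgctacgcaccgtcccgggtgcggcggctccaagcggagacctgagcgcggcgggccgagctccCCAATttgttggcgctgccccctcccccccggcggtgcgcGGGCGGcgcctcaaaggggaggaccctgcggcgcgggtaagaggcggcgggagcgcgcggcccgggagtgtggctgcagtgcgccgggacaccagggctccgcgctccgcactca
COL4A5 (chrX:108439588-108439887, plus strand): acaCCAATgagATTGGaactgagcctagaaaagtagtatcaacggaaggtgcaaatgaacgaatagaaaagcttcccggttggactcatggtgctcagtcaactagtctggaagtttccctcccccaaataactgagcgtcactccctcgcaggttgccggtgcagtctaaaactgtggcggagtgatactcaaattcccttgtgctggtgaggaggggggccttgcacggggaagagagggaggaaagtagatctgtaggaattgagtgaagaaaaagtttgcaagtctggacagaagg
COL4A6 (chrX:108439409-108439708, minus strand): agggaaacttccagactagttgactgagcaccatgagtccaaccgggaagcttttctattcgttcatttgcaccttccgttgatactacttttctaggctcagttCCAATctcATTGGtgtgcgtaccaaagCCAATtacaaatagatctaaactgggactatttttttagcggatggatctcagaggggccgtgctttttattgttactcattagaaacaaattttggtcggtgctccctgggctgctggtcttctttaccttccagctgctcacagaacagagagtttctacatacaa

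The windows of COL4A1 and COL4A2 share 226 bases and hold the same single CCAAT, seen as ATTGG in COL4A1, and have a GC content of 76.7% and 77.7%. The COL4A1 window held GGGCGG 2 times and the COL4A2 window once. The windows of COL4A5 and COL4A6 share 121 bases, have a GC content of 49.3% and 43.7%, held CCAAT 2 and 3 times and had no GGGCGG. COL4A6 has a second window (chrX:108438373-108438672) at another start, with a GC content of 50%, no CCAAT and 1 GGGCGG, and the window shown is the one that overlaps that of COL4A5. The letters CCAAT occurred in 34.6%, GGGCGG in 45% and TATAAA in 11.5% of all 35116 promoter windows of this length, so these matches describe the sequences and mark no binding site.

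Most collagen genes were silent or low in these lines, and a few were abundant. A mean of at least 10 TPM in 1 or more lines was reached by 16 of the 44 genes (4 of 11 fibrillar, 3 of 6 basement membrane and 9 of 27 other collagens), and a mean of at least 1 TPM by 32 (7, 6 and 19). The other 12 stayed under 1 TPM in all 11 lines: COL1A2, COL5A3, COL11A1 and COL24A1 among the fibrillar and COL6A3, COL6A5, COL6A6, COL10A1, COL15A1, COL19A1, COL20A1 and COL28A1 among the other collagens, with COL10A1 at 0 counts in every library. COL18A1 and COL27A1 were the 2 genes at 1 TPM or more in all lines. TPM values are per length, so levels of different chains can be compared on this scale.

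**Figure D1:**
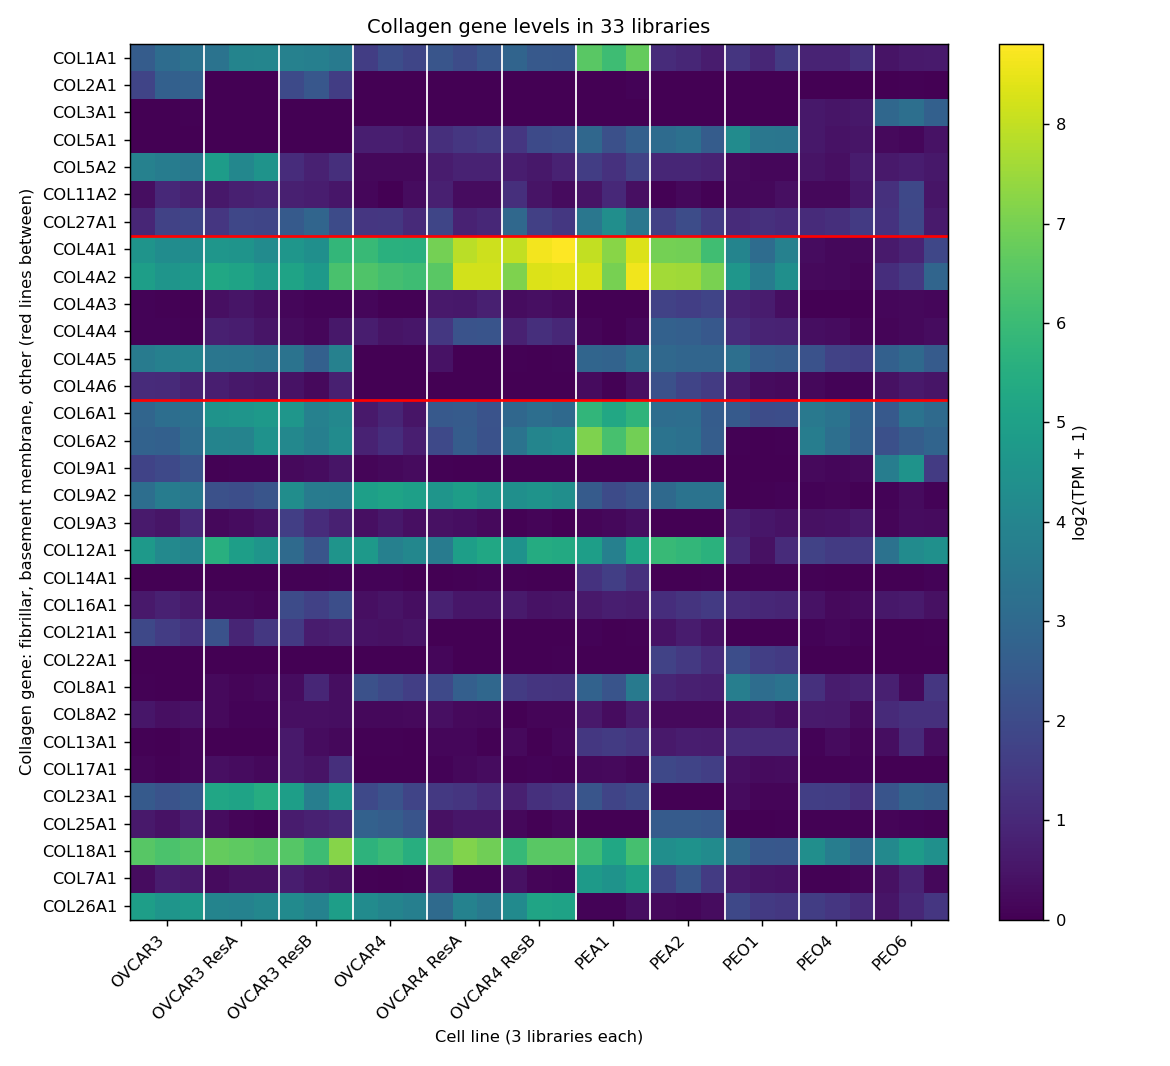
Level of the 32 collagen genes with a mean of at least 1 TPM in a line, as log2(TPM + 1) (colour), in each of the 33 libraries (columns, 3 per line). COL4A1, COL4A2, COL18A1 and COL12A1 carry most of the collagen TPM in the OVCAR and PEA lines, but not in the PEO lines. COL1A1 and COL7A1 stand out in PEA1, and COL4A1 and COL4A2 are near 0 in PEO4.

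The classes contributed very differently from line to line. Basement membrane collagens summed to 637 ± 212 TPM in OVCAR4 ResB (mean ± SD, n = 3, as for all means here), 526 ± 226 TPM in PEA1, 444 ± 197 TPM in OVCAR4 ResA (539 and 575 TPM without replicate 1) and 291 ± 65.9 TPM in PEA2, but to 3.33 ± 1.04 TPM in PEO4. Fibrillar collagens summed to 110 ± 16.5 TPM in PEA1, to between 22.2 and 38.7 TPM in the OVCAR3 family and to between 4.25 and 15.8 TPM in the other 7 lines. They made up 1.27% of all collagen TPM in OVCAR4 ResA and 19.2% in PEO1, the lowest and the highest share. In the OVCAR3 family, PEO4 and PEO6 the other collagens, led by COL18A1, made up 65.6% to 83.9% of the collagen TPM. The PEO lines had the least collagen mRNA in all, at 82.2 ± 21.6 TPM in PEO1, 47.0 ± 13.3 TPM in PEO4 and 94.4 ± 23.4 TPM in PEO6, whereas PEA1 had 927 ± 317 TPM. In bulk samples such as these, fewer cells expressing a gene and less RNA per cell cannot be told apart.

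**Figure D2:**
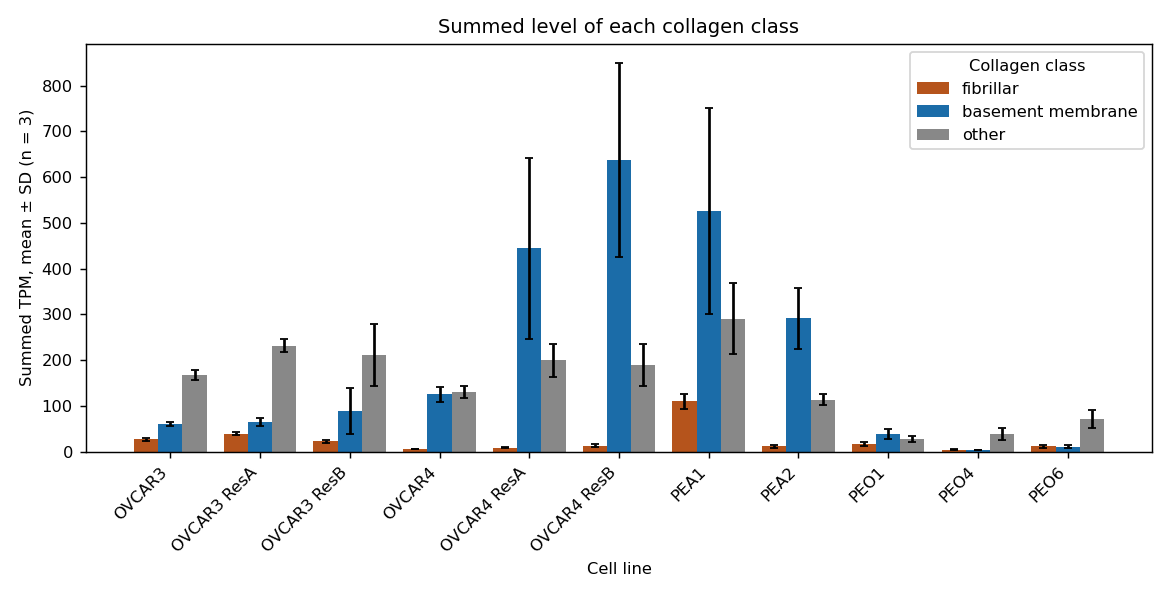
Summed TPM of the fibrillar (11 genes), basement membrane (6) and other (27) collagens in each line; bars are means and error bars SD over 3 libraries. Basement membrane collagens exceed each of the other classes in OVCAR4 ResA, OVCAR4 ResB, PEA1, PEA2 and PEO1 and are at 3.33 TPM in PEO4.

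COL4A1 and COL4A2, which combine as 2 COL4A1 chains and 1 COL4A2 chain in the common type IV trimer, were the most abundant collagen genes of the series and moved together. Ordered by mean, COL4A1 was at 0.168 TPM in PEO4, 1.35 in PEO6, 12 in PEO1, 19.8 in OVCAR3, 21.5 in OVCAR3 ResA, 33.1 in OVCAR3 ResB, 51.6 in OVCAR4, 105 in PEA2, 213 in OVCAR4 ResA, 243 in PEA1 and 367 TPM in OVCAR4 ResB. The library values of the OVCAR3 family overlapped each other, as did those of OVCAR4 ResA, PEA1 and OVCAR4 ResB. OVCAR3 ResB (up to 56.1 TPM) also overlapped OVCAR4 (from 46.4 TPM), and PEA2 (up to 123.7 TPM) overlapped OVCAR4 ResA (from 122.8 TPM). The order within these sets and pairs of lines is not larger than the spread between libraries. Across the 11 line means on the log2(TPM + 1) scale, COL4A1 and COL4A2 had a Pearson r of 0.99 and a Spearman rho of 0.99, and r was 0.99 without PEO4 and PEO6, the lines farthest from the median. Among the 11226 genes with a mean of at least 10 TPM in a line, COL4A2 was the gene whose pattern was most like COL4A1, ahead of FARP1 (r = 0.96), LIMCH1 (r = 0.96) and NFIL3 (r = 0.96). These correlations are descriptions over lines, several of which share an origin, and carry no test; the measure of likeness was chosen after the levels had been seen.

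The ratio of the chains was not constant. COL4A1 divided by COL4A2 in TPM was 0.769 ± 0.028 in OVCAR3, 0.658 ± 0.024 in OVCAR3 ResA, 0.707 ± 0.037 in OVCAR4 and 0.648 ± 0.032 in PEO1. It was highest in OVCAR4 ResB, at 1.47 ± 0.354, and lowest in PEO6, at 0.445 ± 0.024. In PEA1 it was 0.945 ± 0.212, and in PEO4, where both genes were near 0, 1.30 ± 0.36. In OVCAR4 ResB the 3 libraries gave 1.87, 1.23 and 1.30, and in OVCAR4 ResA 1.33, 0.803 and 0.953. The first library of each of these lines had the higher ratio, together with the higher share of RNR1 and RNR2 counts. The shares were 13.1% against 2.47% and 2.39% in ResB and 9.23% against 2.02% and 2.09% in ResA. In OVCAR4 the order was the other way, with ratios of 0.672 and 0.703 at shares of 14.8% and 12%, and 0.746 at 5.18%. The part of that share in the ratio was not tested.

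COL4A3 and COL4A4, the chains of the kidney and lung basement membranes with COL4A5, were low, but followed each other (r = 0.91 over 11 lines, 0.82 without PEA2 and OVCAR4 ResA). They were highest in PEA2, at 2.30 ± 0.206 and 5.13 ± 0.706 TPM, and lowest in PEA1 (COL4A3) and OVCAR3 (COL4A4), at 0.00216 and 0.0462 TPM. COL4A5 was between 2.74 and 13.0 TPM in all lines of the OVCAR3, PEA and PEO families. In the OVCAR4 family COL4A5 was at 0 in 6 of 9 libraries and at most 0.347 TPM, and COL4A6 was at 0 in all 9. COL4A6 reached 1 TPM only in PEA2 (2.64 ± 0.872 TPM), where COL4A5 was 2.62 ± 0.707 times COL4A6, whereas the mean of this ratio was at least 13.7 in each of the other 7 lines in which both chains were detected in every library. Over the 11 lines COL4A5 and COL4A6 had an r of 0.61.

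**Figure D3:**
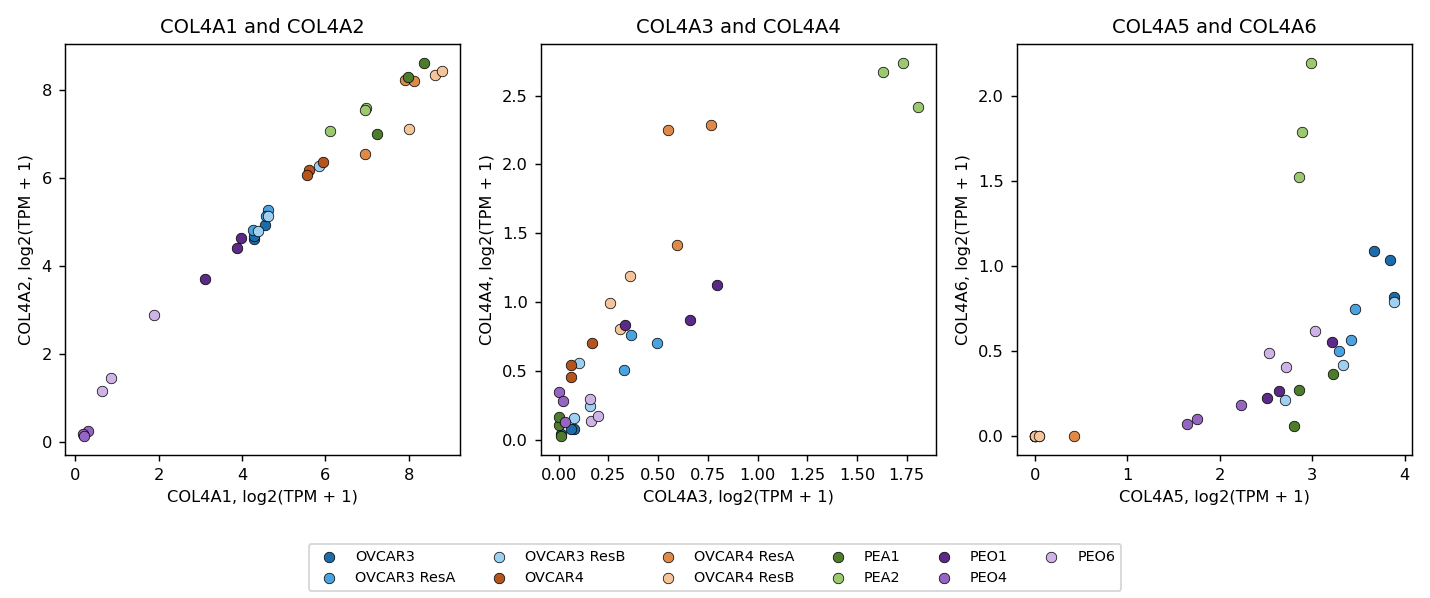
Level of both genes of each head-to-head type IV pair, as log2(TPM + 1), in the 33 libraries (points, coloured by line). COL4A1 and COL4A2 lie close to a single line over their whole range, COL4A4 rises with COL4A3, and the COL4A6 values of PEA2 stand above those of the other lines at like COL4A5.

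The partner chains of type I collagen, and in most lines those of type V, were expressed at unlike levels. COL1A1 (chr17:50184101-50201631), the major chain of type I collagen, was at 93.6, 66.0 and 106 TPM in the PEA1 libraries and at 12.9 TPM in OVCAR3 ResA, 12.6 TPM in OVCAR3 ResB and at most 7.14 TPM elsewhere. Its partner COL1A2 (chr7:94394895-94431227) had no library above 1.04 TPM, and its highest mean was 0.764 TPM, in OVCAR3 ResA. COL5A1 was highest in PEO1 (17.9, 10.3 and 10.0 TPM) and at 0 in all 9 libraries of the OVCAR3 family. COL5A2, the other main chain of type V, showed the opposite arrangement, with 12.1 ± 1.54 TPM in OVCAR3, 22 ± 6.13 TPM in OVCAR3 ResA and 0.136 ± 0.035 TPM in PEO1 (r = -0.44 between both genes over 11 lines). In PEA1 both chains were above 1 TPM, at 5.15 and 1.92 TPM for COL5A1 and COL5A2. COL3A1, which neighbours COL5A2 on chromosome 2 with 19151 bases between them, was at 6.82 ± 1.41 TPM in PEO6, 0.461 TPM in PEO4 and at most 0.0375 TPM in any library of the other 9 lines. COL2A1, the cartilage collagen, was at 2.46, 5.53 and 5.61 TPM in OVCAR3 and at 2.96, 4.29 and 2.05 TPM in OVCAR3 ResB, and was at 0 counts in all 3 libraries of OVCAR3 ResA. COL27A1 was between 1.22 and 4.67 TPM in 10 lines and at 13.3 ± 5.39 TPM in PEA1.

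Among the other collagens, COL18A1 (chr21:45405165-45513720), the source of endostatin, was the most widely expressed, from 5.17 ± 1.45 TPM in PEO1 to 121 ± 19.3 TPM in OVCAR4 ResA. COL12A1, a fibril-associated collagen, was at 10 TPM or more in 9 lines, highest in PEA2 at 55.2 ± 5.79 TPM, and lower in PEO4 (2.03 TPM) and PEO1 (0.803 TPM). COL6A1 and COL6A2, neighbouring genes on chromosome 21 with 93063 bases between them, followed each other (r = 0.89 over 11 lines) with 1 exception: in PEO1, COL6A1 was at 4.63, 3.17 and 3.20 TPM while COL6A2 was at 0.0468, 0.0153 and 0.0354 TPM. COL6A3, the third chain of the main type VI trimer, was at or under 0.752 TPM in every library. COL9A2 reached 31.2 ± 1.93 TPM in OVCAR4, whereas COL9A1 and COL9A3, its partners in type IX, were at 0.141 and 0.349 TPM there. COL9A1 exceeded 10 TPM only in PEO6, with 12.4, 22 and 1.90 TPM in the 3 libraries, a spread as wide as its mean. COL26A1 was at 10 TPM or more in all 6 OVCAR lines and at most 2.09 TPM elsewhere. COL23A1, a transmembrane collagen, was at 37.5 ± 4.94 TPM in OVCAR3 ResA and 22.1 ± 8.75 TPM in OVCAR3 ResB, and COL7A1, the anchoring fibril collagen, at 26.5 ± 4.37 TPM in PEA1.

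**Figure D4:**
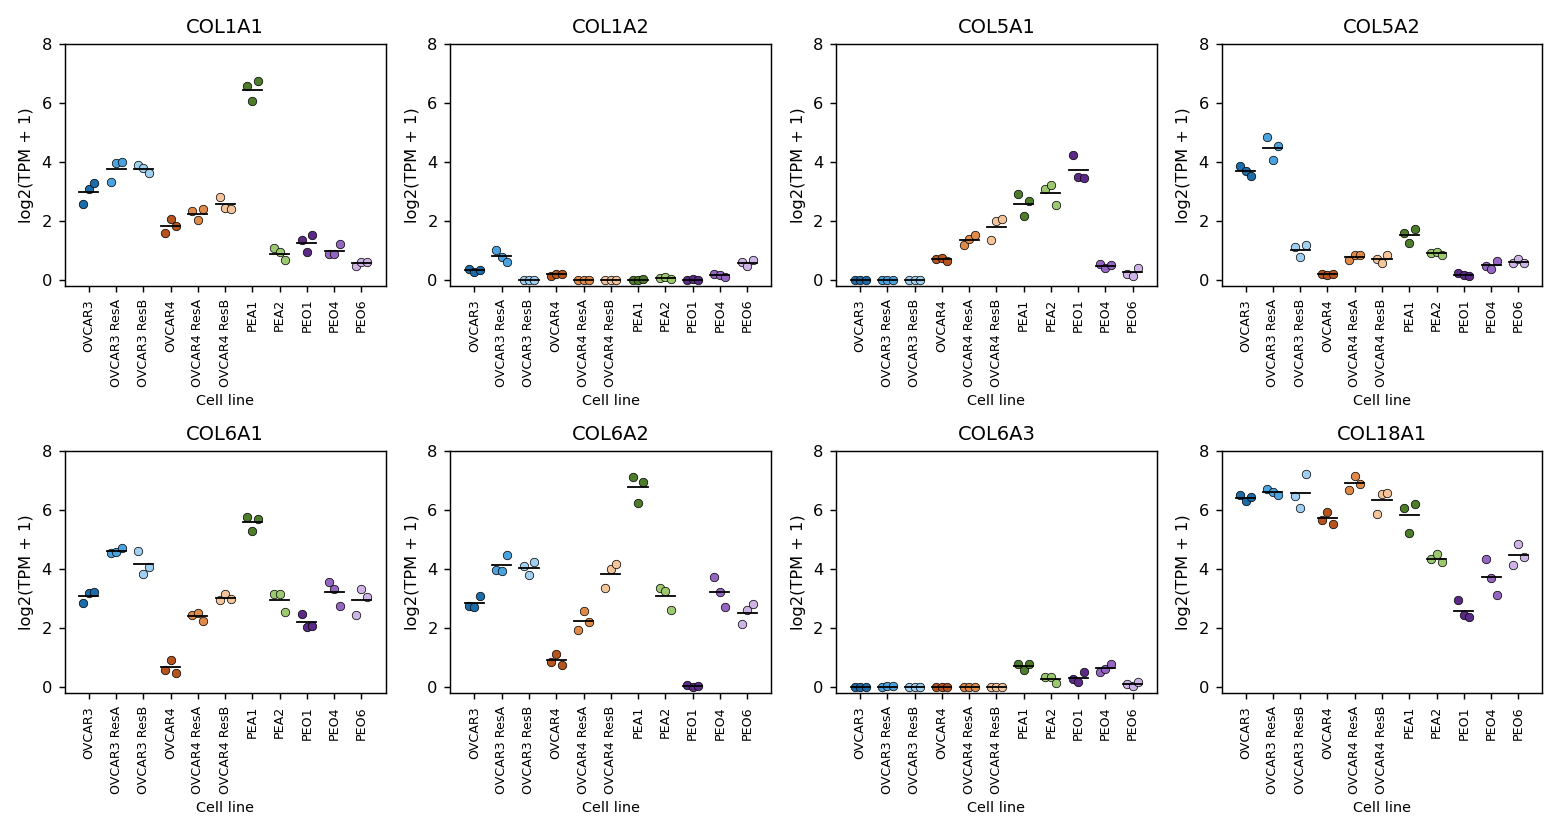
Level of chains of type I (COL1A1, COL1A2), type V (COL5A1, COL5A2), type VI (COL6A1, COL6A2, COL6A3) and type XVIII collagen (COL18A1), as log2(TPM + 1), in each library (points, 3 per line; bars are means). COL1A1 is high in PEA1 without COL1A2, COL5A1 and COL5A2 are high in different lines, and COL6A2 is near 0 in PEO1.

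The question asked of the pairs was which collagen genes differed between each resistant line and the sensitive line of its family. Each pair was fitted across all genes with DESeq2, with the replicate number as a block, and a gene was called at a Benjamini-Hochberg adjusted p under 0.05. Folds below come from this fit, whose size factors centre the median gene near no change. Collagen genes without an adjusted p had too few counts for one and stay in the denominator of 44. A gene that has an adjusted p only because it is high in 1 of the lines had to differ, so the shares of members called are given beside those of all genes and nothing is read from their excess. ResA and ResB share the libraries of their sensitive line, as do PEO4 and PEO6.

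**Figure D5:**
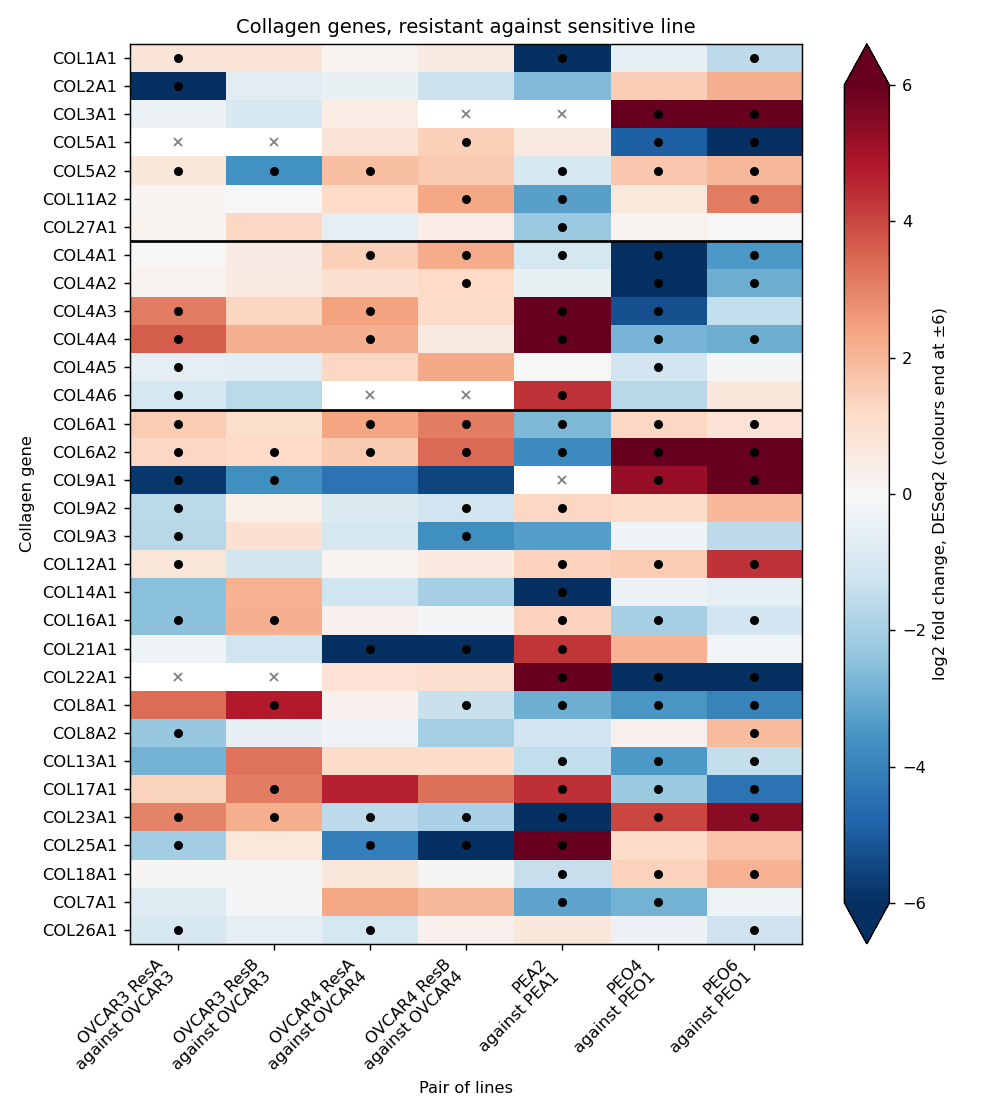
Log2 fold change (colour, ending at ±6) of the 32 collagen genes that reach 1 TPM in a line, for each resistant line against its sensitive line. Dots mark an adjusted p under 0.05, crosses genes with no counts in the pair, and black lines divide fibrillar, basement membrane and other collagens. COL6A2 and COL23A1 are called in all 7 pairs, but in both directions.

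In OVCAR3 ResA against OVCAR3, 9 collagen genes were higher and 12 lower, 21 of the 31 with an adjusted p, beside 44.9% of all genes tested. COL23A1 rose from 4.63, 3.72 and 4.37 TPM to 36.0, 33.5 and 43 TPM, with no overlap (log2 fold change 3 ± 0.14 SE, adjusted p = 3.41e-100). COL6A1 rose from 7.59 to 23.6 TPM (1.51 ± 0.14) and COL6A2 from 6.33 to 16.8 TPM (1.25 ± 0.14), and COL1A1 rose from 7.14 to 12.9 TPM (0.77 ± 0.14, adjusted p = 1.39e-07). COL2A1 fell from a mean of 4.53 TPM to 0 counts, at least 145-fold lower against a floor of 3 counts per library, and COL9A1 fell by 5.81 ± 0.61 on the log2 scale, from 3 to 0.059 TPM (8 counts, counting interval of the ratio 25.4 to 118). COL9A2 fell by 1.62 ± 0.20 and COL26A1 by 0.96 ± 0.13. Of the basement membrane genes COL4A3 and COL4A4 rose, both from under 0.06 TPM to under 0.7 TPM, COL4A5 and COL4A6 fell, and COL4A1 and COL4A2 were not called (19.8 and 21.5 TPM for COL4A1). COL1A1 was not called without the replicate block (adjusted p = 0.0659).

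In OVCAR3 ResB against OVCAR3, 5 collagen genes were higher and 4 lower, 9 of 32 with an adjusted p, beside 7.67% of all genes tested. COL23A1 rose again, from 4.24 to 22.1 TPM (29.7, 12.5 and 24.0 in the libraries; log2 fold change 2.19 ± 0.36). COL16A1, a fibril-associated collagen, rose from 0.618 to 2.91 TPM (2.12 ± 0.44) and COL6A2 from 6.33 to 15.8 TPM (1.20 ± 0.36), whereas COL6A1 (17.7 TPM) was not called. COL5A2 fell from 13.7, 12.1 and 10.6 TPM to 1.16, 0.737 and 1.30 TPM (by 3.65 ± 0.34, adjusted p = 5.02e-24), and COL9A1 fell by 3.68 ± 0.58. None of the 6 basement membrane genes was called by DESeq2 (2 had an unadjusted p under 0.05) or by edgeR. The count was 5, 5 and 13 without replicate 1, 2 and 3, beside 3.87%, 3.02% and 12.5% of all genes tested. COL16A1 was not called without replicate 1 (adjusted p = 0.0614), and COL6A2 was not without replicate 1 (0.351) or replicate 2 (0.51). The 3 endothelial markers checked (PECAM1, VWF and CDH5) summed to 3.01 to 14.4 TPM in OVCAR3 ResB and to 0.239 to 0.546 TPM in OVCAR3, with 1 of 3 at 1 TPM in ResB, and the 4 smooth muscle or pericyte markers (ACTA2, DES, RGS5 and MCAM) to 11.4 to 30.1 and 8.19 to 9.95 TPM. Their part in the collagen results was not tested.

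In OVCAR4 ResA against OVCAR4, 7 collagen genes were higher and 5 lower, 12 of 25 with an adjusted p, beside 11.9% of all genes tested. COL4A1 was at 60.8, 47.6 and 46.4 TPM in OVCAR4 and at 123, 238 and 278 TPM in OVCAR4 ResA, without overlap (log2 fold change 1.45 ± 0.32, adjusted p = 0.000178). COL4A2 (92.2, 297 and 292 TPM against 81.5, 70.8 and 66.0 TPM) was not called, while COL4A4 rose from 0.482 to 3.10 TPM (2.11 ± 0.43). COL6A1 rose from 0.611 to 4.31 TPM (2.36 ± 0.47) and COL6A2 from 0.896 to 3.83 TPM (1.55 ± 0.44). COL25A1, a transmembrane collagen first found in amyloid plaques of the brain, fell by 4.09 ± 0.40 on the log2 scale, from 4.86 to 0.402 TPM (adjusted p = 2.07e-21). COL23A1 fell by 1.55 ± 0.48 and COL26A1 by 1.07 ± 0.32.

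The fibroblast markers summed to 15.5 to 28.1 TPM in OVCAR4 ResA, with 2 of 6 at 1 TPM. Of these markers, THY1 reached 1 TPM in ResA only in replicate 1, the library with PEO1-like genes. In OVCAR4 they summed to 1.07 to 3.11 TPM, with 4 of 6 at 0, and their part in these differences was not tested. Several calls of this comparison depended on which replicates were in the fit. The share of RNR1 and RNR2 counts was 5.18%, 14.8% and 12% in OVCAR4 and 9.23%, 2.02% and 2.09% in OVCAR4 ResA, higher in the resistant line in replicate 1 and lower in replicates 2 and 3, and its part in the differences was not tested. The fit without replicate 1 left out the ResA library with PEO1-like genes and also OVCAR4 replicate 1. It called 16 collagen genes, COL4A1 among them, beside 40.8% of all genes tested. In OVCAR4 ResB against OVCAR4 the share of all genes also rose without replicate 1, from 17.9% to 46.1%. Without replicate 2 or 3 the count was 3 or 2, beside 2.53% and 1.94%, and COL4A1 (adjusted p = 0.108 and 0.286), COL4A4, COL6A2, COL23A1 and COL26A1 were no longer called. The log2 fold changes of COL4A1 (1.39 and 1.25), COL4A4 (1.83 and 1.98) and COL6A2 (1.70 and 1.51) stayed positive without replicate 2 and 3. Those of COL23A1 and COL26A1 stayed negative. COL6A1 and COL25A1 were called in ResA against OVCAR4 whichever replicate was left out. On the TPM scale (limma on log2(TPM + 1)) the median of all genes tested was itself 0.19 higher in ResA and 0.20 higher in ResB than in OVCAR4, so that relative to the median gene the TPM values of these lines overstate increases and understate decreases.

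In OVCAR4 ResB against OVCAR4, 6 collagen genes were higher and 7 lower, 13 of 29 with an adjusted p, beside 17.9% of all genes tested. COL4A1 was at 257, 398 and 447 TPM in OVCAR4 ResB, all above OVCAR4 (log2 fold change 2.24 ± 0.29, adjusted p = 2.04e-12), and COL4A2 rose by less, from 72.8 to 268 TPM (1.21 ± 0.32). COL6A2 rose from 0.896 to 13.8 TPM (3.38 ± 0.40), COL6A1 from 0.611 to 7.25 TPM (3.08 ± 0.44) and COL5A1 from 0.631 to 2.59 TPM (1.42 ± 0.38). COL25A1 fell to 0.0989 TPM (by 6.26 ± 0.61), COL23A1 by 1.96 ± 0.45, COL8A1, a short-chain collagen of vessel walls, by 1.32 ± 0.43 and COL9A2 by 1.18 ± 0.34. The count was 14, 4 and 4 without replicate 1, 2 and 3, beside 46.1%, 5.03% and 4.26% of all genes tested. COL4A1, COL6A1, COL6A2 and COL25A1 were called in all 3 of these fits, whereas COL5A1, COL8A1 and COL9A2 were called neither without replicate 2 nor without replicate 3, as was COL23A1 (adjusted p = 0.2 and 0.0564). The share of RNR1 and RNR2 counts was 13.1%, 2.47% and 2.39% in OVCAR4 ResB, again higher than in OVCAR4 in replicate 1 and lower in replicates 2 and 3, and its part was not tested.

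In PEA2 against PEA1, 10 collagen genes were higher and 15 lower, 25 of 34 with an adjusted p, beside 47% of all genes tested. All 4 fibrillar genes called were lower, led by COL1A1, which fell from 93.6, 66.0 and 106 TPM to 1.11, 0.923 and 0.606 TPM (by 6.50 ± 0.27, adjusted p = 4.9e-126). COL23A1 fell by 7.98 ± 1.11, COL14A1, a fibril-associated collagen, by 6.21 ± 0.69 and COL6A2 by 3.78 ± 0.25, from 112 to 7.68 TPM. COL6A1 fell from 47.9 to 6.92 TPM (by 2.69 ± 0.24) and COL7A1 from 26.5 to 2.86 TPM (by 3.14 ± 0.26). The basement membrane genes moved apart: COL4A1 fell by 1.07 ± 0.29 (252, 150 and 327 TPM against 124, 122 and 68.5 TPM), while COL4A3 rose by 9.44 ± 1.24 (1 count in all of PEA1), COL4A4 by 6.48 ± 0.44 and COL4A6 by 4.31 ± 0.46. COL25A1, also with 1 count in PEA1, rose from 0.00373 to 4.67 TPM (10.12 ± 1.23). The ratios of COL4A3 and COL25A1, on the CPM scale (counts divided by library totals), had exact 95% intervals, for counting error only, of 122 to 26916 and 196 to 43228, and that of COL23A1, with 2 counts in PEA2, of 78.3 to 2353. COL22A1, at 0 counts in PEA1, was at 1.74 TPM in PEA2, at least 68.2-fold higher. COL17A1, the hemidesmosome collagen of epithelia, rose from 0.128 to 2.46 TPM (4.38 ± 0.43).

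The PEA1 libraries were also those with low epithelial markers (428 against 3199 TPM summed in PEA2) and with PDGFRB, at 6.55 against 0.0129 TPM. The summed fibroblast markers were 3.80 to 10.6 TPM in PEA1, with 1 of 6 markers at 1 TPM and 1 at 0, and at most 0.0467 TPM in PEA2, with 3 of 6 at 0. DCN, LUM, FAP, THY1 and PDGFRA did not reach 1 TPM in PEA1. The smooth muscle or pericyte markers summed to 42.2 to 110 TPM in PEA1 and 9.70 to 12.7 TPM in PEA2, with 3 of 4 at 1 TPM in both. The endothelial markers summed to at most 0.109 TPM in PEA1 and to 5.68 to 8.76 TPM in PEA2 (1 of 3 at 1 TPM), and the 4 leukocyte markers (PTPRC, CD3E, CD68 and LYZ) to 10.1 to 23.3 and 52.0 to 54.7 TPM (1 and 2 at 1 TPM). The part of these differences in the collagen results was not tested. COL22A1 was called neither without replicate 1 (adjusted p = 0.0531) nor with all 33 libraries in a single DESeq2 fit (0.0575).

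In PEO4 against PEO1, 11 collagen genes were higher and 12 lower, 23 of 35 with an adjusted p, beside 33.3% of all genes tested. Of the 6 basement membrane genes 5 fell and none rose. COL4A1 fell from 14.7, 7.63 and 13.7 TPM to 0.225, 0.131 and 0.146 TPM (by 6.10 ± 0.29, adjusted p = 9.61e-99) and COL4A2 from 23.6, 12 and 20.0 TPM to 0.176, 0.137 and 0.0873 TPM (by 7.04 ± 0.31, adjusted p = 8.76e-110). COL5A1 fell from 12.7 to 0.409 TPM (by 4.89 ± 0.24), COL8A1 from 9.90 to 0.897 TPM (by 3.48 ± 0.28), and COL22A1 by 9.26 ± 1.22, from 2.38 TPM to 1 count in all 3 libraries (CPM ratio 705, exact 95% interval for counting error 126 to 27879). COL6A2, with 5 counts in PEO1, rose from 0.0325 to 8.77 TPM (8.17 ± 0.69, adjusted p = 3.03e-30; counting interval of the ratio 122 to 878) and COL6A1 from 3.67 to 8.59 TPM (1.24 ± 0.21). COL23A1 rose by 4.01 ± 0.55, COL12A1 by 1.55 ± 0.31 and COL18A1 by 1.39 ± 0.20, from 5.17 to 13.2 TPM. The count was 15 without replicate 1, beside 18.3% of all genes tested, and COL22A1 was no longer called there (adjusted p = 0.0609). With all 33 libraries in a single DESeq2 fit COL22A1 was not called either (adjusted p = 0.122).

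In PEO6 against PEO1, 11 collagen genes were higher and 12 lower, 23 of 32 with an adjusted p, beside 41.4% of all genes tested. COL4A1 fell to 0.546, 0.816 and 2.67 TPM (by 3.44 ± 0.34) and COL4A2 to 3.10 TPM (by 2.91 ± 0.34), and COL4A4 fell by 2.91 ± 0.43, while COL4A5 (5.84 against 6.07 TPM) was not called. COL5A1 fell by 6.02 ± 0.34, COL8A1 by 4.02 ± 0.45 and COL22A1 by 9.62 ± 1.24. With all 33 libraries in a single DESeq2 fit COL22A1 was not called (adjusted p = 0.0776). COL3A1, a stromal fibrillar collagen, rose from 0.00438 TPM to 6.71, 8.28 and 5.47 TPM (10.76 ± 1.23, adjusted p = 4.96e-17). COL3A1 in PEO1 and COL22A1 in PEO6 had 1 count each, and their ratios had exact 95% counting intervals of 361 to 79640 and 144 to 31767. COL9A1 was at 0 counts in PEO1 and at least 179-fold higher in PEO6, although its PEO6 libraries ran from 1.90 to 22 TPM, and it was called neither without replicate 1 (adjusted p = 0.0515) nor without replicate 2 (0.0615). COL6A2 rose by 7.32 ± 0.75, COL23A1 by 5.40 ± 0.51, COL12A1 by 4.31 ± 0.35, from 0.803 to 15.8 TPM, and COL18A1 by 2.09 ± 0.26. The count was 15 without replicate 2, beside 23% of all genes tested. FAP, a fibroblast marker, was at 13.9 TPM in PEO1 and at most 0.0334 TPM in PEO4 and PEO6, and THY1 was at 173, 112 and 107 TPM in the 3 lines. The part of these differences in the collagen results was not tested.

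The resistant lines of a family were also compared with each other, which tests whether their differences from the shared sensitive line are alike. In OVCAR3 ResB against OVCAR3 ResA, 9 of 31 collagen genes with an adjusted p were called (6 higher, 3 lower), beside 13.5% of all genes tested. COL5A2 was at 28.1, 15.8 and 22.1 TPM in ResA and 1.07 TPM in ResB (lower by 4.35 ± 0.35), and COL16A1 was higher in ResB (2.91 against 0.124 TPM, 4.59 ± 0.50). COL2A1 was at least 96.2-fold higher in ResB. COL9A2 was higher by 1.93 ± 0.41, COL9A3 by 2.49 ± 0.80 and COL12A1 fell by 1.81 ± 0.47. Without replicate 1, 2 and 3 the count was 4, 3 and 10, beside 6.5%, 5.15% and 23.5% of all genes tested. COL2A1, COL9A2, COL9A3 and COL12A1 were called neither without replicate 1 nor without replicate 2. COL4A1 was at 23.5, 22.7 and 18.2 TPM in ResA and at 23.5, 19.8 and 56.1 TPM in ResB, which overlapped, and was not called.

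In OVCAR4 ResB against OVCAR4 ResA, 14 of 27 were called (8 higher, 6 lower), beside 32.8% of all genes tested. COL6A2 was higher in ResB (13.8 against 3.83 TPM, 1.83 ± 0.20), as were COL26A1 (28.3 against 10.7 TPM, 1.36 ± 0.14), COL27A1 (1.03 ± 0.25) and COL4A1 (0.80 ± 0.13). The COL4A1 libraries of both lines overlapped in TPM (123 to 278 and 257 to 447), and each ResB library was higher than the ResA library with the same number. COL4A4 was lower in ResB (1.01 against 3.10 TPM, by 1.60 ± 0.25), as were COL8A1 (by 1.58 ± 0.38) and COL18A1 (81.5 against 121 TPM, by 0.62 ± 0.11). Without the replicate block 8 collagen genes were called, beside 12.9% of all genes tested. COL4A1 (adjusted p = 0.0545) and COL27A1 (0.342) were not among the 8. Without replicate 1, 2 and 3 the count was 10, 6 and 7, beside 28.7%, 12.5% and 19.7% of all genes tested. COL27A1 was not called without replicate 1, which holds the ResA library with PEO1-like genes, and COL8A1 was not without replicate 2 or 3.

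In PEO6 against PEO4, 15 of 32 were called (13 higher, 2 lower), beside 18.2% of all genes tested. Of the 6 basement membrane genes 5 were higher in PEO6 and none was lower, with COL4A2 at 3.10 against 0.134 TPM (4.10 ± 0.53) and COL4A1 at 1.35 against 0.168 TPM (2.64 ± 0.56), so that both stayed below PEO1. COL9A1 (5.82 ± 0.64), COL3A1 (3.82 ± 0.38) and COL12A1 (2.76 ± 0.36) were also higher in PEO6. With all 33 libraries in a single DESeq2 fit COL3A1 was not called (3.88, adjusted p = 0.544). The lower genes were COL6A3 and COL6A5, neither above 0.6 TPM on average in either line. Without replicate 1, 2 and 3 the count was 7, 6 and 13, beside 7.62%, 4.81% and 32.7% of all genes tested.

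Over the 7 pairs, 39 of the 44 collagen genes were called at least once, in 126 of 308 combinations of gene and pair (59 higher, 67 lower). Of the 40 with an adjusted p in at least 1 pair these were 97.5%, beside 76.3% of all 19798 such genes, and 57.8% of the combinations tested were called, beside 29.8%. A gene low in all libraries of a pair got no adjusted p, so that these shares depend on the filter, and nothing is read from their difference. No gene moved one way throughout the 7 pairs, and 24 were called in both directions (60% of the 40, beside 31.1% of all genes). COL6A2 and COL23A1 were called in all 7. COL6A2 was higher in 6 resistant lines and lower in PEA2, and COL6A1 was called in 6 of those pairs with the same direction as COL6A2 in each. COL23A1 was higher in 4 (the OVCAR3 and PEO families) and lower in 3 (the OVCAR4 and PEA families). COL12A1 was higher in 4 pairs and lower in none, and COL8A1 was lower in 4 and higher in 1. COL4A1 was higher in both OVCAR4 lines, lower in PEA2, PEO4 and PEO6, and not called in the OVCAR3 family. COL5A3, COL6A6, COL10A1, COL19A1 and COL20A1 were called in none, and no library held more than 8 counts of any of these 5.

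With the line as the unit (counts summed over replicates, 4 sensitive and 7 resistant lines, family as a covariate), DESeq2 called 0 of 43 collagen genes, beside 0.286% of all genes tested. At an unadjusted p under 0.05 there were 2, COL11A1, lower in resistant lines by 3.62 ± 1.35 on the log2 scale, and COL6A2, higher by 1.95 ± 0.97 (adjusted p = 0.432 and 0.812). edgeR called 0, with 1 at an unadjusted p under 0.05. PEO4 and PEO6 were separate units in these tests, although they may share a clone.

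The genes that fold, modify, trim, bind and degrade collagen were followed as 3 lists: 33 genes of collagen processing (hydroxylases, chaperones, procollagen proteinases, lysyl oxidases), 10 receptors and 7 collagenases and related proteases. In PEA2, where the fibrillar collagens called were all lower, 6 processing genes rose and 16 fell, among them ADAMTS2, a procollagen N-proteinase at 0.524 TPM in PEA1 and at 0 counts in PEA2 (at least 10.2-fold lower). All 33 had an adjusted p there, and of all genes tested 23.3% rose and 23.8% fell. In PEO6 against PEO1 4 of 33 rose and 14 fell (21.2% and 20.3% of all genes tested), and in PEO4 7 and 9 of 33 (16.6% and 16.7%). In OVCAR3 ResA 6 rose and 10 fell of 31 (22% and 22.9%), and in OVCAR3 ResB 3 and 1 of 31 (4.1% and 3.57%). In OVCAR4 ResA 1 rose and 2 fell of 30 (6.68% and 5.22%), and in OVCAR4 ResB 2 and 2 of 32 (9.09% and 8.77%). Without replicate 1, 14 were called in OVCAR4 ResA, beside 40.8% of all genes tested. LOXL2, a lysyl oxidase that crosslinks type IV collagen, was called in 6 pairs, 3 in each direction. It followed COL4A1 in direction in OVCAR4 ResB, PEA2, PEO4 and PEO6. Its level was 48.3 ± 11.4 TPM in PEO1 and 3.15 and 1.43 TPM in PEO4 and PEO6. LOXL2 also rose in OVCAR3 ResA (1.46) and OVCAR3 ResB (3.39), where COL4A1 was not called. It was not called in OVCAR4 ResA, where COL4A1 rose. LOXL2 lost its call under 5 of 10 alternative fits in OVCAR4 ResB, 2 in OVCAR3 ResB and 4 in PEO6 against PEO4. In PEO6 against PEO4 LOXL2 was lower (by 1.25 on the log2 scale) and COL4A1 higher. SPARC, a collagen-binding chaperone of the matrix, was called in 6 pairs (2 higher, 4 lower), and went from 2.93 TPM in OVCAR3 to 0.0109 TPM in OVCAR3 ResA. P3H2, the prolyl 3-hydroxylase of type IV collagen, rose in both resistant OVCAR3 lines and fell in PEA2, PEO4 and PEO6. Its call was lost under 5 of 10 alternative fits in OVCAR3 ResB and under 3 in PEO4. SERPINH1, the collagen chaperone HSP47, fell in OVCAR3 ResA from 487 to 172 TPM.

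Of the receptors, ITGA2 was called in 6 pairs (4 higher, 2 lower) and ITGA1 in 5 (4 higher, 1 lower). ITGA1 and ITGA2, the alpha subunits of the type IV and type I collagen integrins, moved in opposite directions in PEA2, PEO4 and PEO6. ITGA2 was at 1.48 TPM in PEA1 and 39.1 TPM in PEA2, where ITGA1 went from 12.7 to 1.25 TPM. Both rose in OVCAR3 ResA (ITGA1 by 1.06 and ITGA2 by 1.01 on the log2 scale) and in OVCAR4 ResA (1.32 and 1.47). In OVCAR4 ResA both lost their call under 5 of 10 alternative fits. In OVCAR3 ResA ITGA1 lost it under 3 and ITGA2 under 1. In OVCAR4 ResB against OVCAR4 ResA both were lower (-1.25 and -2.26). Of the collagenase list, MMP2, a gelatinase that cleaves type IV collagen, was called in 5 pairs (1 higher, 4 lower), and MMP14, which activates it, in 5 (3 higher, 2 lower). MMP14 lost its call under 5 of 10 alternative fits in OVCAR4 ResA and under 4 in OVCAR4 ResB. In PEA2 all 5 members of this list with an adjusted p were called, 4 lower and MMP1 higher, beside 47% of all genes tested.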

How the data were processed

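Total RNA of 11 HGSOC cell lines, 3 replicates each, was sequenced after mRNA library preparation (KAPA mRNA HyperPrep), as a library pool loaded on more than 1 run. Per the study's methods the reads were processed with the nf-core/rnaseq pipeline against GRCh38. The authors deposited estimated counts (salmon's expected counts), without normalisation, and 88.4% of these values were whole. The TPM deposited by the authors divide these by effective gene length and scale every library to the same sum, so they carry no depth. Strand use and annotation release are not given in the sources used here, so reads of overlapping genes cannot be told apart.

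Expected counts were rounded and each pair of lines was fitted on its own, over all 29744 genes without a filter, with DESeq2 1.42.0 (R 4.3.3; Wald test, replicate number as a block), following the study's methods. Where DESeq2 gave no adjusted p-value, none was filled in. The replicate numbers carry no stated meaning. Pairing was checked by correlating how libraries with equal numbers deviated from the mean of their line. The correlation was above 0.1 for all 3 numbers in OVCAR3 ResA against OVCAR3 (0.832, 0.362 and 0.699) and OVCAR4 ResB against OVCAR4 ResA (0.842, 0.755 and 0.717), and not in the other 8 comparisons. The line-level test used counts summed per line with family as a covariate. Differences between families were contrasts in a DESeq2 fit of all 33 libraries. Alternatives were no block, TMM factors, a filter of at least 10 counts in 3 libraries, edgeR 4.0.16 (quasi-likelihood), limma 3.58.1 on log2(TPM + 1) and log2(TPM + 0.1), a single fit of all libraries, and fits without each replicate or family. A fit without OVCAR4 ResA replicate 1 was added for the family differences after the data were seen. The fitting procedure was tested on simulated data.

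Genes with a mean of at least 10 TPM in a line were described by level. In each comparison up to 4 increases and 4 decreases were named, among called collagen genes with a mean of at least 1 TPM in either line and a change of equal sign for each replicate number, together with partner chains; a few others were named after their values were seen. The members and the gene lists were chosen with earlier results of these data known. Folds against a line with all libraries at 0 were computed against a floor of 3 counts per library, and where a line had at most 3 counts in a library the exact 95% interval of the ratio is given; intervals and floors cover counting error only. Positions and promoter sequences are from RefSeq GRCh38.p14, by symbol, with positions for all 44 genes.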

Additional observations from a re-analysis of the deposited data

Results flagged for a closer look

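Some collagen genes were called in opposite directions in resistant lines, and their differences are given here on the log2 scale with adjusted p-values from DESeq2. The genes were picked because these same libraries gave opposite calls, both within and between families. A difference was therefore largely fixed in advance, and these p-values give no independent support. Within a family, where both resistant lines share the libraries of their sensitive line, COL1A2 was higher in OVCAR3 ResA and lower in OVCAR3 ResB than in OVCAR3 (ResB minus ResA -7.20, adjusted p = 5.31e-06, with 0.764 TPM in ResA and 0.00568 TPM, from 1 count, in ResB). The same held for COL5A2 (-4.35, adjusted p = 5.73e-33), whereas COL16A1 was lower in ResA and higher in ResB (4.59, adjusted p = 9.33e-18). COL6A3 was higher in PEO4 and lower in PEO6 than in PEO1 (PEO6 minus PEO4 -2.99, adjusted p = 7.6e-06), at 0.265 TPM in PEO1, 0.582 TPM in PEO4 and 0.082 TPM in PEO6.

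Between families, the mean of the resistant lines minus the sensitive line was compared, for genes with a mean of at least 10 TPM in a line that were called in every pair of both families, in one direction in the first and the other in the second. For COL23A1 the difference was 4.35 between the OVCAR3 and OVCAR4 families (adjusted p = 7.83e-28), 10.59 between OVCAR3 and PEA (1.34e-20), -6.44 between OVCAR4 and PEO (1.83e-34) and -12.69 between PEA and PEO (7.01e-27). For COL6A2 it was 4.99 between OVCAR3 and PEA (1.73e-35), 6.23 between OVCAR4 and PEA (6.8e-51) and -11.54 between PEA and PEO (4.97e-51), and for COL6A1 5.38 between OVCAR4 and PEA (3.47e-41) and -3.78 between PEA and PEO (9.26e-23). PEA1, with its low epithelial markers, is the sensitive line of every contrast with PEA, and its part in them was not tested. For COL4A1 the difference was 2.89 between OVCAR4 and PEA (1.94e-10) and 6.57 between OVCAR4 and PEO (1.87e-54), and 2.99 and 6.65 without OVCAR4 ResA replicate 1. For COL9A1 it was -13.13 between OVCAR3 and PEO (3.61e-16), a value that includes libraries at 0 and is no bound. For COL18A1 and COL5A2 it was -3.21 (1.11e-20) and -2.82 (3.22e-13) between PEA and PEO. Family and culture medium cannot be told apart in the contrasts with the OVCAR3 or OVCAR4 family, and PEA and PEO shared a medium.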

How the results depend on the processing

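Of the 69 collagen changes named and 58 called changes of 10 genes of the other lists, 0 changed direction under the alternatives run. The ratios and correlations were not recomputed. Of the recomputed collagen counts, 76 stayed within 1.5 times the reported count, 5 were larger and 28 smaller. TMM factors and the filter changed no count by more than 1.5 times. With all 33 libraries in a single fit the count rose from 9 to 14 in OVCAR3 ResB, from 9 to 17 in OVCAR3 ResB against ResA and from 12 to 20 in OVCAR4 ResA. The share of all genes tested rose in these fits too, from 7.67% to 17%, from 13.5% to 28% and from 11.9% to 26%. edgeR called 4 in OVCAR4 ResA (against 12) and 7 in OVCAR4 ResB (against 13). Of all genes tested it called 2.53% and 6.78%, against 11.9% and 17.9% with DESeq2. limma on log2(TPM + 1) called 0 in OVCAR3 ResB, OVCAR4 ResA, OVCAR4 ResB and OVCAR3 ResB against ResA (11, 16, 14 and 12 at an unadjusted p under 0.05), where it called 2, 0, 0 and 6 of all genes, 7 in OVCAR4 ResB against ResA and 1 in PEO6 against PEO4. The counts in OVCAR4 ResB against ResA and in PEO6 against PEO4 stood beside 15.6% and 1.25% of all genes tested. With a pseudocount of 0.1 limma called 0 in OVCAR3 ResB and OVCAR4 ResA (12 and 15 unadjusted), beside 0.192% and 0%. It called 4 in OVCAR4 ResB, 4 in OVCAR3 ResB against ResA and 3 in PEO6 against PEO4, beside 1.54%, 2.74% and 2.89%. The cause was not tested. Leaving out 1 replicate gave 15 to 16 calls in OVCAR3 ResA, 5 to 13 in OVCAR3 ResB, 2 to 16 in OVCAR4 ResA, 4 to 14 in OVCAR4 ResB, 19 to 22 in PEA2, 15 to 18 in PEO4 and 15 to 19 in PEO6. Of all genes tested these fits called 29.9% to 34.3% in OVCAR3 ResA and 26.7% to 44.7% in PEA2. In PEO4 and PEO6 they called 18.3% to 37.4% and 23% to 32.8%. Fits without a replicate hold fewer libraries. Between resistant lines they gave 3 to 10 collagen calls (OVCAR3), 6 to 10 (OVCAR4) and 6 to 13 (PEO), and at line level 0. At line level 1 gene was called without the PEA family (COL6A1) and 3 without the PEO family (COL4A4, COL9A1 and COL17A1). These stood beside 0.374% and 1.19% of all genes tested. Of the 69 changes named, 29 were called under every alternative, and 26 of the 58. The 6 family differences with OVCAR4 given above, refitted without OVCAR4 ResA replicate 1 (chosen after seeing the data), ranged from -6.56 to 6.65 and all stayed called. For lists of other genes, 196 counts stayed within 1.5 times, 20 were larger and 84 smaller. Depth limits genes with a few counts, whose folds are given as bounds or with counting intervals.

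Without the replicate block 8 collagen genes were called in OVCAR4 ResB against ResA (14 with it), where the numbers pair the libraries by the correlation check. The share of all genes tested fell there from 32.8% to 12.9%. In OVCAR3 ResA, the other comparison with such pairing, 19 were called against 21, and the share fell from 44.9% to 30.1%. The remaining counts without the block were 12 in OVCAR3 ResB, 18 in OVCAR4 ResA, 16 in OVCAR4 ResB and 26 in PEA2. They stood beside 9.81%, 21.5%, 28.5% and 51% of all genes tested. In PEO4, PEO6, OVCAR3 ResB against ResA and PEO6 against PEO4 the counts were 25, 24, 13 and 18. Beside these were 32.9%, 38.5%, 18.1% and 26% of all genes tested.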
